A study of Gallus gallus with 6 samples.

Results

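The small leucine-rich proteoglycans were examined in cultured chicken primordial germ cells (PGC) and cultured chicken embryonic fibroblasts (CEF). Of 10 genes on the member list, 8 had a probe set whose single annotated symbol was that gene, namely LUM, DCN, BGN, FMOD, OGN, PRELP, KERA and EPYC. Membership was set by gene symbol, but the family was picked for description with earlier results of these data known, so its share of called genes is a description. BGN had 4 probe sets and the others 1 each, which gave 11 of the 38439 probe sets and 8 of the 13009 genes tested. ASPN and OMD had no probe set with their symbol and were not analysed here under those names. PGC, the precursors of eggs and sperm, came from the blood of embryos at day 2.5, with 20 embryos pooled for each replicate. Their medium was knockout DMEM to which human bFGF, a fibroblast growth factor, was added at 10 ng/ml, and 1500000 cells went into each RNA sample. CEF came from the bodies of day 6.5 embryos without internal organs and limbs, with 5 embryos pooled for each replicate. They were kept in DMEM containing 10% FBS, a serum, to passage 2, and 6000000 cells went into each sample. Each cell type had 3 biological replicates by its labels, each on a 1-colour Affymetrix Chicken Genome Array. The 2 cell types therefore also differed in embryonic age and medium, and the labels give no passage for PGC.

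Small leucine-rich proteoglycans are secreted matrix proteins whose core is a curved stack of leucine-rich repeats between cysteine clusters. Many carry chondroitin, dermatan or keratan sulphate chains, and several lie on collagen fibrils, where they set fibril width and spacing, or bind growth factors such as TGF-beta. In connective tissue they are made mainly by fibroblasts and related mesenchymal cells. By sequence the listed members fall into classes. DCN, BGN and ASPN are in class I, LUM, FMOD, PRELP, KERA and OMD in class II, and EPYC and OGN in class III. The member list need not hold every gene of the family.

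The 6 arrays had median log2 values of 2.69 to 2.77. A background level, the 95th percentile of 689 probe sets whose identifiers mark no chicken transcript, had a mean of 1.68 in PGC and 1.97 in CEF. All 10 germ cell markers were higher in PGC and 11 of 13 fibroblast markers were lower in PGC. The exceptions were PDGFRA, above background on 1 CEF array, and TCF21, at background on all 6 arrays. Values varied more among CEF, with a median SD of 0.0953 over the PGC arrays and 0.203 over the CEF arrays. Leukocyte genes were lower in PGC for 6 of 7 measured and higher for 1, CYBB (1.35 ± 0.43, limma adjusted p = 0.0303, named after its values were seen). These are 85.7% and 14.3% of the list, against 14.9% and 17.6% of all genes. The mean log2 level of the 7 leukocyte genes lay between 2.84 and 2.88 on the PGC arrays and between 3.99 and 5.36 on the CEF arrays.

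LUM, DCN and BGN were lower in PGC, where each lay at background on all 3 arrays, while all 3 CEF arrays were above it. To be called, a gene needed a limma adjusted p under 0.05 and a change of 2-fold or more, which is 1 on the log2 scale. Of the 8 measured members 3 (37.5%) were called lower in PGC, against 14.9% of all genes, and 0 were called higher, against 17.6% of all genes. At an unadjusted p under 0.05, 4 members were lower in PGC and 0 higher. KERA, above background on 1 CEF array only, was the member added at this looser threshold. The share of all genes passing it was not taken. Counts at it, here and for the lists below, therefore have no general share beside them. The median log2 difference, PGC minus CEF, was -0.60 over the 8 members and -0.05 over all genes. None of the 8 members exceeded background on any PGC array. Of all probe sets, 67.1% to 68.2% exceeded it on each PGC array. The share of all genes under background on all 3 PGC arrays was not taken. FMOD, PRELP, OGN and EPYC were at background on all 6 arrays as well, as were 9.81% of all genes. The pattern of 0 PGC and 3 CEF arrays above background, shown by LUM, DCN and BGN, was found for 243 genes (1.87%). The data are of bulk RNA, in which fewer cells of a type and less RNA per cell cannot be told apart.

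**Figure D1:**
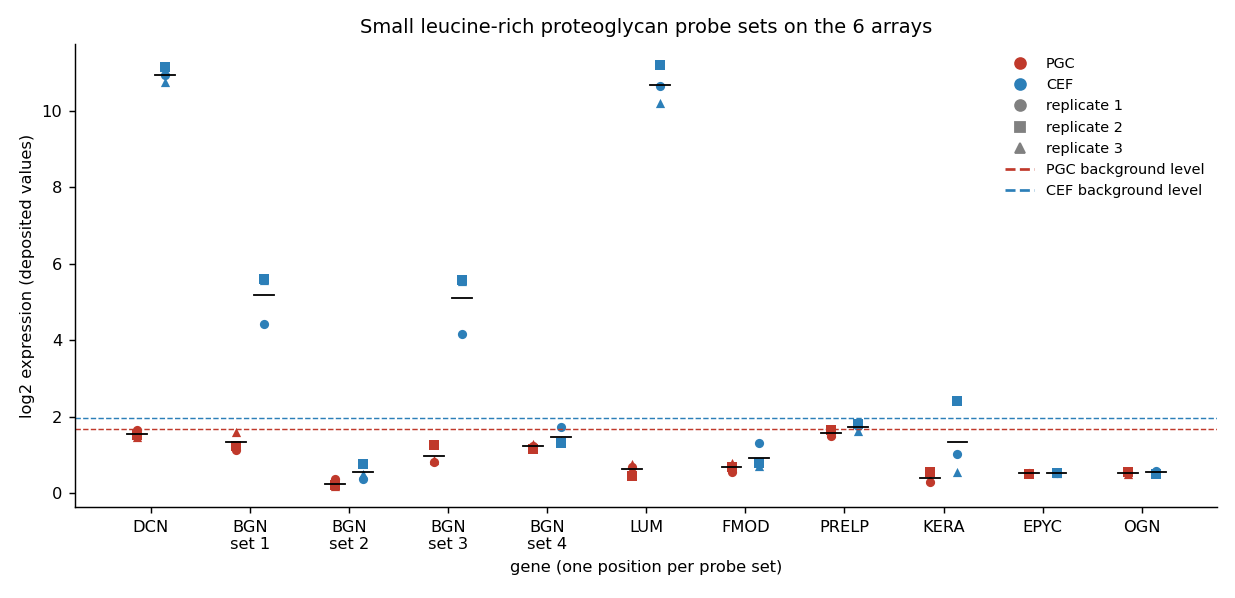
Deposited log2 expression of the 11 probe sets on the 6 arrays, with PGC in red on the left and CEF in blue on the right of each position, short black lines at group means and dashed lines at the mean background level of each cell type. LUM and DCN lie between 10.20 and 11.20 in CEF, BGN is split over 4 probe sets of which only sets 1 and 3 exceed background in CEF, and KERA does so on 1 CEF array.

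Among the class I members, DCN encodes decorin, which binds type I collagen fibrils and TGF-beta. DCN had log2 values of 1.65, 1.54 and 1.48 on the PGC arrays and of 10.93, 11.16 and 10.76 on the CEF arrays. Every PGC value was under background, though PGC replicate 1 only barely (its array's level was 1.654), and the groups were far apart. DCN was at least 617-fold lower in PGC, with a log2 difference of -9.39 ± 0.13 (SE, n = 3 arrays each; limma adjusted p = 2.27e-09; 95% interval -9.70 to -9.09). The fold is a bound under the deposited scaling, since it sets the CEF mean against the PGC background level.

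BGN is the symbol the annotation gives to a gene that lies between ECM2 and OMD, the place that ASPN holds in mammals. Whether it is the counterpart of mammalian BGN (biglycan) or ASPN (asporin) was not settled here, and all values under BGN are those of the gene so annotated. Both proteins are class I relatives of decorin. Its brightest probe set had log2 values of 1.14, 1.24 and 1.62 on the PGC arrays and of 4.42, 5.61 and 5.58 on the CEF arrays. The groups did not overlap, and CEF replicate 1 stood below the other two CEF arrays. BGN was at least 11.5-fold lower in PGC (log2 difference -3.87 ± 0.31, limma adjusted p = 1.31e-05).

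The 4 BGN probe sets did not behave alike, and 2 of the 4 were called lower in PGC, against 10.1% of all probe sets. The other called set has an identifier ending that marks probes shared between transcripts. It had log2 values of 0.83, 1.27 and 0.87 in PGC and of 4.18, 5.57 and 5.55 in CEF, a difference of -4.11 ± 0.36 (limma adjusted p = 1.93e-05). Its CEF arrays stood in the same order as those of the brightest set. The called sets may read the same transcript, which was not checked, so this match is not a separate observation. The remaining sets were at background on all 6 arrays, between 0.19 and 1.30 in PGC and between 0.38 and 1.75 in CEF, with differences of -0.29 ± 0.12 and -0.24 ± 0.14. Averaged over all 4 sets, BGN differed by -2.13 (limma adjusted p = 1.6e-05), and over the 3 sets without that ending by -1.47.

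Among the class II members, LUM encodes lumican, a keratan sulphate proteoglycan that controls fibril spacing in the cornea and in other connective tissues. LUM had log2 values of 0.68, 0.47 and 0.77 on the PGC arrays and of 10.65, 11.20 and 10.20 on the CEF arrays. The groups were far apart, although CEF replicates 2 and 3 lay 1.00 from each other. LUM was at least 513-fold lower in PGC (log2 difference -10.05 ± 0.24, limma adjusted p = 1.47e-08, 95% interval -10.59 to -9.51). Ordered by difference from the lowest in PGC, LUM was number 3 and DCN number 5 of 13009 genes, and BGN was number 310.

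KERA encodes keratocan, a keratan sulphate proteoglycan best known from the corneal stroma. KERA had log2 values of 0.29, 0.55 and 0.37 on the PGC arrays and of 1.03, 2.43 and 0.55 on the CEF arrays. CEF replicate 2 was above its array's background level of 1.97, while the other two CEF arrays and all PGC arrays were below theirs. KERA was not called (log2 difference -0.93 ± 0.40, limma adjusted p = 0.0867). Without CEF replicate 3 it was called lower in PGC (-1.33, limma adjusted p = 0.017), and without CEF replicate 2 the difference came to -0.39, so that single arrays decide its size.

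FMOD encodes fibromodulin, a collagen-binding proteoglycan of tendon and cartilage. FMOD had log2 values of 0.57, 0.68 and 0.79 in PGC and of 1.31, 0.79 and 0.72 in CEF, with overlapping groups (-0.26 ± 0.16, limma adjusted p = 0.206). PRELP, a member with a basic, heparin-binding end that links collagens to basement membranes, had values of 1.50, 1.65 and 1.57 in PGC and of 1.76, 1.81 and 1.64 in CEF (-0.17 ± 0.11, limma adjusted p = 0.252). Neither gene exceeded background on any array.

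The class III members are EPYC, epiphycan of growth plate cartilage, and OGN, osteoglycin or mimecan, of bone and other connective tissues. EPYC had log2 values of 0.54, 0.50 and 0.54 in PGC and the value 0.54 on each of the 3 CEF arrays. To all deposited digits, 5 of its 6 values were the same number, as happened for only 12 of the 38439 probe sets (0.031%). OGN had values of 0.56, 0.56 and 0.50 in PGC and of 0.58, 0.52 and 0.56 in CEF. Both differed by -0.01 ± 0.08 (limma adjusted p = 0.893 for EPYC and 0.901 for OGN), and at background such values do not show that the genes are transcribed alike. The PGC arrays all lay below the CEF arrays for 4 of the 8 members (LUM, DCN, BGN and KERA), or 50%, against 35.5% of all genes. For KERA the gap was between 0.5481, the highest PGC value, and 0.5523, the lowest CEF value.

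**Figure D2:**
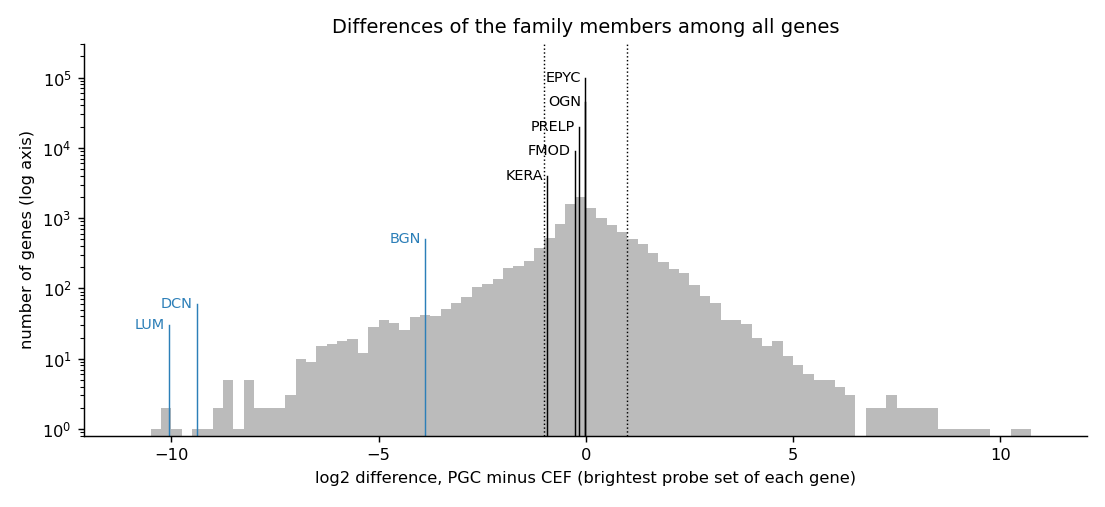
Histogram of the log2 difference, PGC minus CEF, of 13009 genes by their brightest probe set, on a logarithmic count axis, with a line at each member (the line's height has no meaning) and dotted lines at a 2-fold difference. LUM at -10.05, DCN at -9.39 and BGN at -3.87 (blue, called) lie in the left tail, and KERA, FMOD, PRELP, OGN and EPYC (black, not called) lie within 1 of zero.

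The direction of the differences was checked under other scalings of the arrays. Scaled to the bacterial spike-ins bioB, bioC and bioD, which differed by -0.97 on average (PGC minus CEF), the median difference of all genes moved to 0.93. The cre spike-in, which this scaling did not use, differed by only -0.13. The share of called genes that were higher in PGC was 54.3% with the deposited values and 86.5% after that scaling. Centring on the 75th percentile moved the median to -0.17. After spike-in scaling LUM (-9.07), DCN (-8.42) and BGN (-2.89) remained called lower in PGC. FMOD (0.71), PRELP (0.81), OGN (0.96) and EPYC (0.96) turned sign and lay near the median of 0.93. KERA (0.04) turned sign too, but lay well below that median. None of the members that turned sign was called.

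The members lie in runs along the chromosomes, by the gene order of the RefSeq table of assembly GRCg7b, which is used here for order and names only. EPYC, KERA, LUM and DCN follow each other as neighbouring protein-coding genes. In this run LUM and DCN had some of the largest differences of all genes, while KERA, next to LUM, and EPYC, beyond KERA, were not called. On the far side of DCN, BTG1, an antiproliferative gene expressed in many cell types, was also lower in PGC (log2 8.92 in PGC and 10.59 in CEF, difference -1.67 ± 0.06, limma adjusted p = 8.65e-08), though present in both cell types. On the far side of EPYC, beyond a gene with no probe set, the plasma membrane calcium pump gene ATP2B1 was higher in PGC (1.86 ± 0.18, limma adjusted p = 3.43e-05).

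The second run comprises ECM2, BGN, OMD and OGN, all of which lie inside the interval that the table gives for CENPP, a gene of the centromere. ECM2, which encodes a matrix protein with leucine-rich repeats of the same kind, had log2 values of 1.35, 1.35 and 1.32 in PGC and of 5.36, 5.52 and 6.24 in CEF. It was at least 16.2-fold lower in PGC (-4.37 ± 0.22, limma adjusted p = 8.89e-07), beside BGN with its similar difference of -3.87. OGN, in the same run, was at background. CENPP itself was not called (0.18 ± 0.12). On the far side of OGN, NOL8 was higher in PGC (1.66 ± 0.23, limma adjusted p = 3.54e-04).

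The third run is FMOD, PRELP and OPTC, opticin, a leucine-rich repeat protein of the vitreous of the eye. FMOD and PRELP were at background on all 6 arrays. OPTC had values of 1.72, 1.84 and 2.11 in PGC and of 1.75, 1.78 and 1.81 in CEF, and was not called (0.11 ± 0.13). OPTC exceeded background on all 3 PGC arrays, whose levels were 1.65, 1.73 and 1.67, and on 0 CEF arrays. The gene before FMOD is BTG2, a relative of BTG1, which was 8.68-fold lower in PGC (-3.12 ± 0.11, limma adjusted p = 8.8e-08). ATP2B4, the gene after OPTC, was also lower in PGC (-1.18 ± 0.11, limma adjusted p = 2.74e-05).

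**Figure D3:**
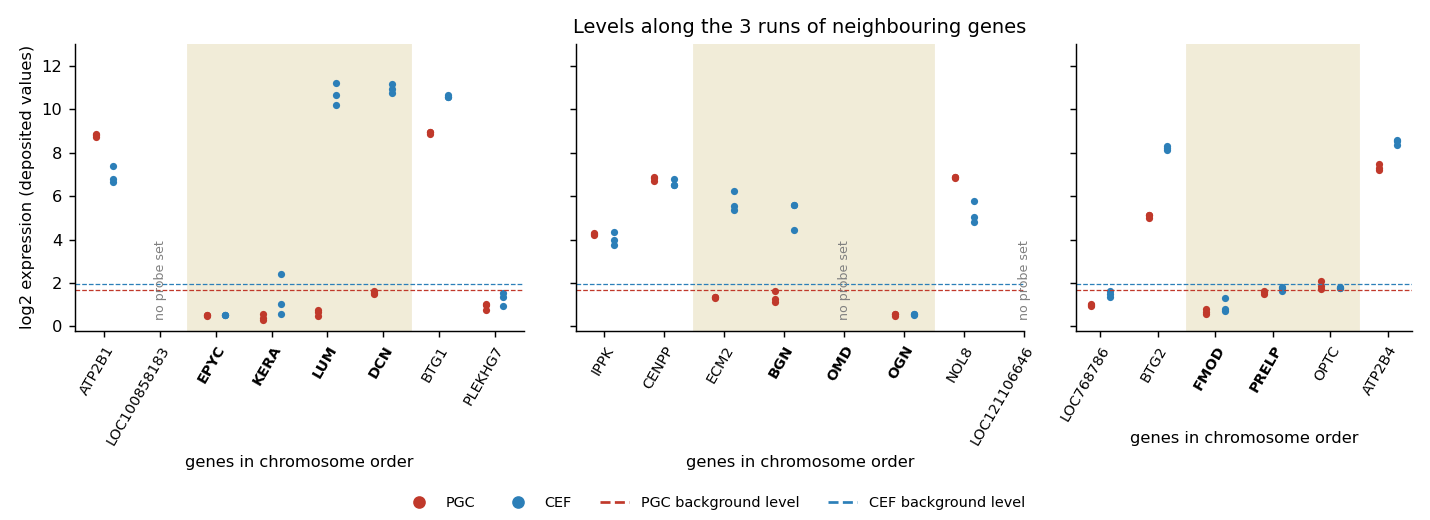
Deposited log2 expression of each array for the 3 runs (shaded, members in bold) and their flanking genes in chromosome order, with PGC in red left of CEF in blue and dashed lines at the background levels. The same runs hold genes far above background in CEF (LUM, DCN, ECM2 and BGN) and genes at background on all 6 arrays (EPYC, OGN). KERA lies between EPYC and LUM, and OMD, with no probe set, between BGN and OGN.

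The 3 CEF replicates differed in their levels of LUM and DCN. Both genes were highest in CEF replicate 2 and lowest in CEF replicate 3, and the range over CEF was 1.00 for LUM and 0.40 for DCN. KERA exceeded background in CEF replicate 2 alone, so its order over the others has no meaning. BGN had a range of 1.19 with its lowest value in CEF replicate 1. Of 1883 genes called lower in PGC and above background on all CEF arrays, 12.9% had a CEF range at least that of LUM, 56.5% at least that of DCN and 9.29% at least that of BGN, and 14.2% had the order of LUM and DCN. The mean log2 level of 12 collagen genes was 8.92, 9.15 and 8.84 in CEF replicates 1, 2 and 3, and that of 4 tendon markers was 4.90, 5.27 and 4.57. Of the tendon markers, SCX and TNMD had this order and MKX and THBS4 did not (named after their values were seen). The mean of the 7 leukocyte genes ran the other way, at 4.62, 3.99 and 5.36. Of the other marker lists, fibroblast and muscle had the order of LUM by their means, cartilage and endothelium the reverse, and the rest neither. The fibroblast means were 8.31, 8.47 and 8.27 in CEF replicates 1, 2 and 3. COL1A1, COL1A2 and COL3A1 are in both the fibroblast and the collagen list, so the order of these means is not a separate observation. PDGFRA, with 1.13, 2.71 and 1.02 above background in CEF replicate 2 alone, also enters the fibroblast means. Most fibroblast genes did not have the order of LUM singly. Of the collagen genes in the fibroblast list, COL1A2 and COL3A1 had it and COL1A1 did not. The part of these cell type markers in the spread of the family was not tested.

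**Figure D4:**
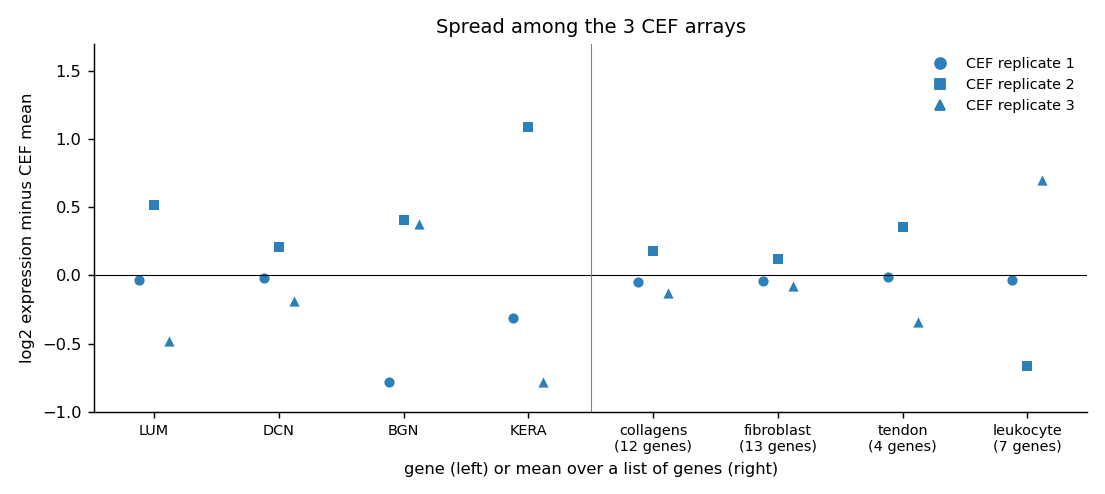
Log2 expression on each CEF array minus the mean of the 3, for LUM, DCN, BGN and KERA on the left and for the mean over 4 lists of genes on the right. KERA is at background in replicates 1 and 3. Replicate 2 is highest and replicate 3 lowest for LUM, DCN, collagens, fibroblast and tendon markers, and the order is reversed for leukocyte markers. The 4 lists are a selection, and several marker lists not drawn had neither order. The collagen and fibroblast lists share COL1A1, COL1A2 and COL3A1, so their orders are not separate observations.

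Genes with the most similar pattern were found by the root-mean-square distance between values centred on each gene's mean over the 6 arrays. Nearest to LUM were S100A6, a calcium-binding protein (distance 0.285), POSTN, the matrix protein periostin (0.380), and the galectin LGALS1A (0.466). Nearest to DCN were S100A6 again (0.271), COL12A1, a collagen found on the surface of type I collagen fibrils (0.334), and CCDC80, a matrix protein (0.341). Nearest to BGN were ITGAV, an integrin subunit that binds matrix proteins (0.147), RHOC, a small GTPase (0.193), and ITGA8, another integrin subunit (0.203). For LUM and DCN these are the genes with differences of about the same size, from -10.27 for POSTN to -8.76 for CCDC80. For BGN they also share its low CEF replicate 1, with log2 values of 8.13, 9.38 and 9.43 on the CEF arrays for ITGAV and a difference of -3.83 ± 0.31 (limma adjusted p = 1.25e-05).

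Collagens that family members bind were lower in PGC for 10 of 12 measured genes, against 14.9% of all genes, with a median difference of -5.11. None was called higher, also at an unadjusted p under 0.05 (0 of 12). COL12A1 had log2 values of 2.06, 2.56 and 2.15 in PGC and of 10.96, 11.29 and 11.09 in CEF, 463-fold lower in PGC (-8.85 ± 0.16). COL1A1, a chain of the main fibrillar collagen, was 250-fold lower (-7.97 ± 0.11) and COL5A1, a chain of a collagen that nucleates such fibrils, 167-fold lower (-7.38 ± 0.14, the largest adjusted p of these 3 genes being 5.85e-09). Unlike LUM and DCN, all 3 genes were above background on the PGC arrays, COL12A1 by the least. COL2A1, a cartilage collagen, was not called and had means of 6.65 in PGC and 6.50 in CEF, a difference of 0.15 ± 0.11 that came to 1.12 after spike-in scaling and to -0.09 over its probe sets without a shared-probe ending.

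Chondroitin and dermatan sulphate are the chains of decorin and biglycan, though whether the gene annotated BGN encodes biglycan was not settled here. Genes of their synthesis were lower in PGC for 9 of 19 measured genes and higher for 1, with a median of -0.92. These are 47.4% and 5.3% of the list, against 14.9% and 17.6% of all genes. The chondroitin synthase CHSY3 was at background in PGC (0.68, 0.73 and 0.46) and had values of 3.24, 3.83 and 4.01 in CEF, at least 4.03-fold lower in PGC. DSE, an epimerase that turns chondroitin into dermatan sulphate, was 5.23-fold lower in PGC (-2.39 ± 0.22, limma adjusted p = 2.77e-05), and CHST3, a chondroitin sulphotransferase, was 4.70-fold lower (-2.23 ± 0.18). B3GALT6, which adds a galactose of the linker between core protein and chain, was higher in PGC (1.42 ± 0.13, limma adjusted p = 3.38e-05), but not as the mean of its 3 probe sets (0.64). CHPF2, a chondroitin polymerising factor, was below the 2-fold minimum (-0.66 ± 0.11, or 0.31 after spike-in scaling). After spike-in scaling 4 genes were called lower and 4 higher.

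Genes of keratan sulphate synthesis and tyrosine sulphation, modifications that LUM, KERA and FMOD can carry, were lower in PGC for 1 of 11 measured genes and higher for 3 (median -0.14). These shares, 9.1% and 27.3%, stand against 14.9% and 17.6% of all genes, and on 11 genes are near that background. CHST6, the sulphotransferase needed for corneal keratan sulphate, had log2 values of 5.79, 5.77 and 5.73 in PGC and of 7.45, 7.39 and 7.04 in CEF. It was 2.89-fold lower in PGC (-1.53 ± 0.13, limma adjusted p = 1.79e-05), a call that ended after spike-in scaling (-0.56). Higher in PGC were TPST2, a tyrosine sulphotransferase (1.43 ± 0.14), and the sulphotransferases CHST1 (1.18 ± 0.17) and CHST2 (1.03 ± 0.14). None of these 3 passed limma's treat, a test against a 2-fold difference (adjusted p of 0.053, 0.74 and 1). CHST1 came to 0.54 as the mean of its probe sets, under the 2-fold minimum. CHST2 fell under it at 0.93 without CEF replicate 3 and 0.99 without PGC replicate 1. It also did so at 0.9 with 75th percentile centring and at 0.9 with quantile normalization. B3GNT2, an enzyme that extends the sugar backbone, had a difference of 0.12 ± 0.09, or 1.09 after spike-in scaling.

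Growth factors and receptors that bind family members were lower in PGC for 9 of 17 measured genes and higher for 2, with a median of -1.40. These are 52.9% and 11.8% of the list, against 14.9% and 17.6% of all genes. CCN2, connective tissue growth factor, was 369-fold lower (-8.53 ± 0.10), and TGFB3, a TGF-beta ligand, 18.5-fold lower (-4.21 ± 0.14). MET, a receptor that decorin binds in mammals, was at background in PGC (1.32, 1.15 and 1.27) against 5.17, 4.67 and 4.86 in CEF, at least 9.30-fold lower (-3.65 ± 0.16, limma adjusted p = 3.98e-07). The receptor ERBB4 was higher in PGC (1.60 ± 0.26), as was TGFBR3, a TGF-beta co-receptor (1.20 ± 0.12). Both lost the call under limma's treat (adjusted p of 0.14 and 0.33), and TGFBR3, at background in CEF, was at least 1.32-fold higher, or 0.40 on the log2 scale with values floored at background. EGFR, another receptor of decorin, differed by -0.24 ± 0.20, or 0.73 after spike-in scaling.

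Among proteases that process or cleave family members, listed with PCOLCE2, which is not a protease, 5 of 9 measured genes were lower in PGC. The list had 0 genes higher, also at an unadjusted p under 0.05. The share lower was 55.6%, against 14.9% of all genes. MMP2, a gelatinase that can cleave decorin, had log2 values of 2.17, 1.74 and 1.71 in PGC and of 10.68, 10.25 and 10.47 in CEF. It was 386-fold lower in PGC (-8.59 ± 0.17), a fold that rests on PGC values near background. PGC replicates 2 and 3 barely exceeded their background levels of 1.73 and 1.67. PCOLCE2, an enhancer of procollagen processing, was 9.88-fold lower (-3.30 ± 0.11), or -0.48 by its probe sets without a shared-probe ending, which ended the call. The aggrecanase ADAMTS5 was at background in PGC and at least 5.34-fold lower there (-3.26 ± 0.24, limma adjusted p = 7.79e-06). ADAMTS1, a related protease, was just under the 2-fold minimum (-0.99 ± 0.19), and was called under 6 of the alternatives.

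Other matrix proteins of leucine-rich repeats were lower in PGC for 2 of 6 measured genes, ECM2 and TSKU, and higher for 0 (0 also at an unadjusted p under 0.05). The share lower was 33.3%, against 14.9% of all genes. Unlike the 8 measured members, CHADL, OPTC and TSKU of this list exceeded background on all 3 PGC arrays. TSKU, tsukushi, a secreted inhibitor of BMP signalling, was 3.14-fold lower (-1.65 ± 0.29, limma adjusted p = 0.00158), or -0.68 and not called after spike-in scaling, nor under limma's treat (adjusted p = 0.16). CHADL was not called (-0.44 ± 0.14), but was as the mean of its 2 probe sets (-1.25, limma adjusted p = 0.00042), and came to 0.53 after spike-in scaling. The large chondroitin sulphate proteoglycans and link proteins were lower in PGC for 3 of 5 measured genes and higher for 0 (1 at an unadjusted p under 0.05), or 60.0% lower against 14.9% of all genes. VCAN, versican, was 5.66-fold lower (-2.50 ± 0.15, limma adjusted p = 2.58e-06) and BCAN, brevican, 3.66-fold lower (-1.87 ± 0.25), a call that ended after spike-in scaling (-0.90). The link protein HAPLN1 had log2 values of 3.07, 2.82 and 2.83 in PGC and of 3.94, 3.54 and 5.39 in CEF (-1.39 ± 0.41, limma adjusted p = 0.0226). That call ended without CEF replicate 3 (-0.83), without any 1 PGC replicate (adjusted p between 0.054 and 0.072), after spike-in scaling (-0.41) and under treat (adjusted p = 0.89). NCAN, neurocan, was not called (0.70 ± 0.16) and was called higher in PGC after spike-in scaling (1.67).

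**Figure D5:**
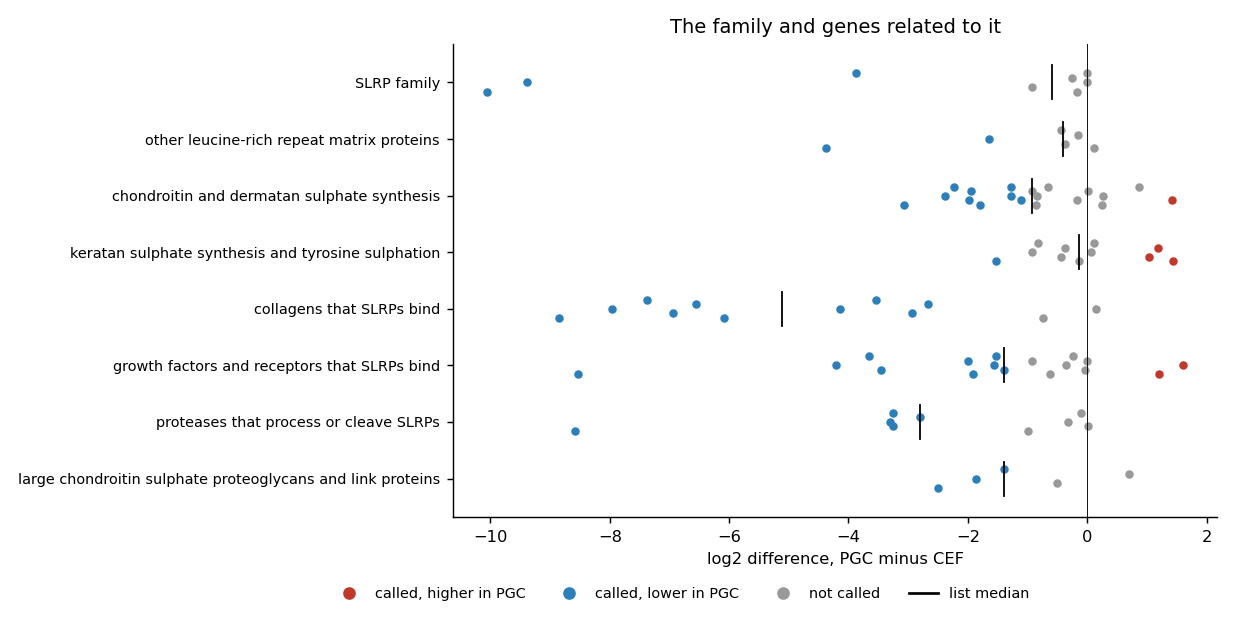
Log2 difference, PGC minus CEF, of each measured gene on the member list (SLRP, small leucine-rich proteoglycan) and of 7 lists of related genes. Genes are coloured by call, with a black line at each list's median. The medians run from -5.11 for collagens to -0.14 for keratan sulphate synthesis and tyrosine sulphation, the list with the most genes called higher in PGC (3 of 11).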

How the data were processed

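Per the labels, total RNA (Qiagen RNeasy, DNase-treated, about 5 µg) was labelled as biotinylated cRNA for the arrays. The authors deposited log2 expression values of 38535 probe sets. Base 2 was read from their range (-0.13 to 12.52). Both MAS5 and GCOS appear in the submitters' processing notes, but how the values were normalized is not given in the sources used here. After leaving out 96 AFFX controls, 38439 probe sets were fitted without further scaling in limma 3.58.1 (R 4.3.3; lmFit, then a two-sided eBayes test with a trend on intensity), with cell type as the only term and Benjamini-Hochberg adjustment over all of them. Precision is limited by the number of arrays (4 residual degrees of freedom). The fit was tested on simulated data.

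In the array annotation 27168 of the fitted probe sets had 1 symbol, and 177 on the array had several and named no gene. For each gene the brightest probe set, by its mean over the 6 arrays, was used. A fold is "at least" where the lower cell type was at background on all its arrays. Such a bound holds for the deposited scaling and the brightest probe set, and other scalings or probe set rules can give less. No reporter probe set is named as blank, so the background uses the 689 others only. Named were all members, in each list the 3 largest called differences per direction and the brightest of the genes that were not called (the rule allows up to 3), and the 3 genes nearest to each called member. Flanking genes follow from gene order, and those named (BTG1, BTG2, ATP2B1, ATP2B4, NOL8, CENPP) were chosen after their values were seen. The members and lists were chosen with earlier results of these data known. Correlations of same-numbered replicates' deviations were -0.0365, -0.0138 and 0.0088. Those of other pairs ran from -0.0785 to 0.0836. The replicate numbers were therefore not used as pairs, although so few arrays cannot exclude a batch shared by same-numbered replicates. Alternatives comprised other scalings, floors, filters, probe set rules, tests, a replicate block and leaving out each array. No sequence is printed.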

Additional observations from a re-analysis of the deposited data

How the results depend on the processing

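LUM, DCN and BGN were called lower in PGC under all 16 alternatives, not all of which could change the differences. LUM and DCN had 1 probe set each, so averaging probe sets left their differences as they were. The replicate block, treat and the fit without an intensity trend keep every difference and alter only its test. Leaving out 1 array in turn gave -10.29 to -9.79 for LUM, -9.49 to -9.29 for DCN and -4.26 to -3.66 for BGN, and the count of members called lower was 3 to 4, the fourth being KERA. The other alternatives spanned -10.17 to -9.00, -9.52 to -8.42 and -3.99 to -1.47. The filter on dim probe sets removed the 5 other members and kept LUM, DCN and BGN through their CEF arrays alone. With a replicate block the values for LUM (-10.05), DCN (-9.39) and BGN (-3.87) were called as before. KERA then had a limma adjusted p of 0.023, but its difference of -0.93 stayed under the 2-fold minimum. Quantile normalization turned EPYC to 0.08 and OGN to 0.09, and leaving out 1 array gave -0.03 to 0.01 for OGN (0.01 without PGC replicate 3). Centring on the 75th percentile turned B3GNT2 to -0.00. After spike-in scaling the values were 0.71 for FMOD, 0.81 for PRELP, 0.96 for OGN and EPYC, 0.04 for KERA, 0.53 for CHADL, 0.31 for CHPF2 and 0.73 for EGFR, and COL2A1 came to -0.09 by its unshared probe sets.

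Of all probe sets 5597 were higher and 3872 lower in PGC, or 3245 and 2419 under treat and 15563 and 1761 after spike-in scaling. For genes these were 2294 and 1933, 1401 and 1283, and 5938 and 928. Spike-in scaling gave 4 higher and 4 lower for chondroitin and dermatan sulphate synthesis, 1 higher for collagens, 5 lower for growth factors and receptors, 5 higher and 0 lower for keratan sulphate synthesis, 1 higher and 1 lower for large proteoglycans, and 1 higher and 1 lower for other leucine-rich repeat proteins. Treat gave 0 higher for growth factors and receptors and for keratan sulphate synthesis and 1 lower for other leucine-rich repeat proteins. Both probe set averages gave 0 higher for chondroitin and dermatan sulphate synthesis, the floor gave 1 higher for growth factors and receptors, and 75th percentile and quantile scaling gave 2 lower for keratan sulphate synthesis. Leaving out 1 array gave 1 to 2 higher for chondroitin and dermatan sulphate synthesis, and 1 to 2 lower for keratan sulphate synthesis. Where no value above shows it, the cause was not tested. Differences at background carry no size, and cell type, embryonic age and medium cannot be told apart.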

Other observations

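Marker lists of other cell types were set against all genes, of which 14.9% were called lower in PGC and 17.6% higher. Of 11 measured cartilage genes 2 were lower (18.2%) and 1 higher (9.1%), and of 6 endothelial genes 1 was lower (16.7%) and 0 higher, shares lower that are near that of all genes. Of 7 bone genes 2 were lower (28.6%) and of 8 muscle genes 2 were lower (25%), with 0 higher in either list (0 also at an unadjusted p under 0.05 by limma). Of 4 tendon genes 2 were lower and 1 higher, and of 6 neural genes 1 was lower and 2 higher. Of 4 erythroid genes 0 were called by limma, with 2 lower and 0 higher at an unadjusted p under 0.05. All 3 measured epithelial genes were higher in PGC. Lists of 3 to 8 genes give coarse shares.

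Distances to LUM, DCN and BGN were also taken over the 3 CEF arrays alone, an alternative chosen after seeing the data, among genes called lower in PGC and above background on all 3 CEF arrays. Nearest to LUM were then GLT8D2 (0.011), TMEM61 (0.031) and SPON2 (0.069), and nearest to DCN were FZD6 (0.007), WIPI1 (0.007) and CORO2B (0.009). Nearest to BGN were EDN1 (0.048), ITGAV (0.056) and RAI14 (0.075). ITGAV was also near BGN over the 6 arrays. Those include these 3 CEF arrays, so its return is not a separate observation. These distances rest on 3 arrays and are a description.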
